A study of Rattus norvegicus with 58 samples.

Results

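The genes described here are 150 genes of rat synovium that were higher in untreated pristane-induced arthritis than in naive rats and that, among all genes raised in this way, stood highest at day 5 relative to untreated arthritis. They were chosen on measured values, the group means of the deposited log2 table. A gene had to have a mean of at least 3 in untreated arthritis and to exceed the naive mean by at least 2, which 473 of 16879 genes did. These 473 were ranked by D, the average of the day 5 saline and day 5 RTD-1 means minus the mean of untreated arthritis, and the 150 highest were taken. Differences of untreated arthritis from naive and of day 5 from untreated arthritis therefore describe the choice and are given without a test.

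Arthritis was induced with pristane in female DA/OlaHsd rats at 6 to 8 weeks of age, and treatment time was counted from the day after each rear limb had reached a score of at least 3. Synovial RNA was sequenced in 58 libraries. Naive rats (n = 4) and rats with untreated pristane-induced arthritis (PIA, n = 4) were the reference groups. Arthritic rats were given saline or RTD-1 and sampled after 1 day (n = 4 in each arm), 3 days (n = 8 in each arm) and 5 days (n = 8 in each arm), the RTD-1 at 5 mg per kg under the skin. Healthy rats given RTD-1 were sampled after 3 and 5 days (n = 5 at each time). Healthy rats given saline were not analysed here. The labels tie no library to an animal, and p-values therefore reflect only how much these libraries vary.

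The synovium is the thin membrane that lines a joint. In pristane-induced arthritis, a model of rheumatoid arthritis provoked by a hydrocarbon oil, it thickens, gains vessels and fills with leukocytes, and its resident fibroblasts take up an invasive, matrix-degrading state. Inflammatory transcripts differ in how long they stay raised once the disease is established. The treatment, rhesus theta-defensin 1, is a cyclic antimicrobial peptide of macaque leukocytes that also lowers the release of inflammatory cytokines. In whole tissue such as this, a change in the number of cells of a type and a change in RNA per cell cannot be told apart.

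Genes are given by their Ensembl identifier. The reference used here (RefSeq, assembly GRCr8) paired 0 of all 16879 identifiers with a symbol, and so 0 of the 150. No role, cell type or sequence is therefore given for any gene, and the tissue was not checked against markers. The libraries held 464693 to 7716834 reads in genes. Levels are normalized reads, that is, whole reads recovered from the table and scaled to the median library, and differences are on the scale of log2(normalized reads + 1) unless the deposited log2 scale is named. A filter on low values asked for 10 or more normalized reads in 4 or more libraries, and all 150 genes passed it, as did 13062 genes in all.

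A minority of the 150 genes stood above untreated arthritis at day 5. D was above 0 for 38 genes, with a median of 0.36 and a highest value of 2.01 in deposited log2 units. It was below 0 for the other 112, with a median of -0.47 and a lowest value of -0.69. The median over the 150 was -0.41, over the 323 induced genes that were not taken -1.13, and over all 13062 genes -0.24. Persistence in the strict sense, a day 5 mean no lower than untreated arthritis, thus held for 38 genes. The other 112 had lower day 5 means and were the least reduced of the remaining induced genes. The count depended on scaling: with trimmed mean of M values (TMM) factors, which moved the median of all genes to -0.00, 56 of the 150 had D above 0, including all 38. Membership depended on it too, since with TMM factors 327 genes met both thresholds and 104 of the 150 were taken again. Without untreated arthritic replicate 4, only 22 of the 38 genes kept D above 0.

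**Figure D1:**
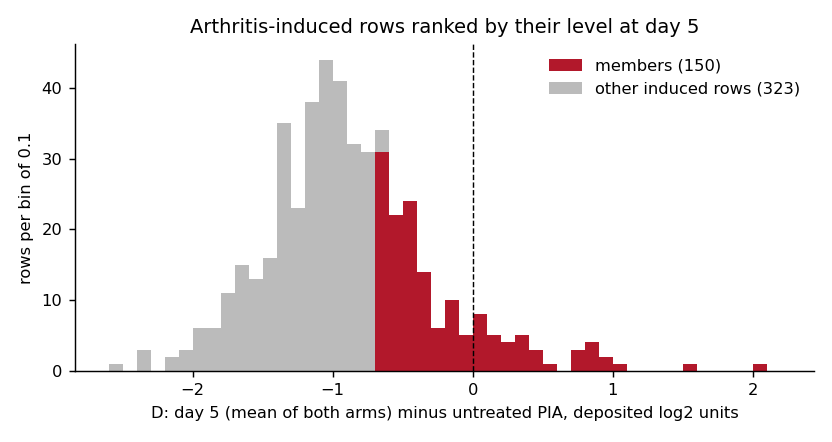
Number of genes (y axis) by D (x axis, deposited log2 units, bins of 0.1) for the 473 arthritis-induced genes, with the 150 chosen genes in red and the other 323 in grey. The dashed line marks no difference from untreated arthritis, and 38 genes lie to its right.

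The limit at rank 150 fell in a dense stretch of genes. The last genes taken were ENSRNOG00000011683 (D = -0.69) and ENSRNOG00000058470 (D = -0.69). The next 2 genes, just outside, both had D = -0.70. ENSRNOG00000011683 had 64.9, 49.0, 65.8 and 45.8 normalized reads in the naive libraries and 262, 325, 155 and 338 in untreated arthritis, which do not overlap. At day 5 it ranged from 137 to 211 (median 179) with saline and from 103 to 198 (median 169) with RTD-1, above every naive library in both arms. ENSRNOG00000058470 had 200.0, 195, 181 and 467 normalized reads in the naive libraries and 17621, 14726, 14641 and 5412 in untreated arthritis. It kept to between 4462 and 12946 (median 7301) with saline and between 1536 and 14487 (median 9554) with RTD-1 at day 5, so its lowest value there was still above its highest naive value.

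Baseline and arthritic levels spanned a wide range. The 150 genes had a mean of 49.0 to 122713 normalized reads in untreated arthritis, with a median of 204, and a median of 30.9 in naive rats. The difference between untreated arthritis and naive ran from the limit of 2 set by the rule to 10.02 in deposited log2 units, with a median of 2.55 against 2.83 in the 323 induced genes not taken.

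The gene with the highest D, ENSRNOG00000018570 (D = 2.01), was near 0 in most libraries without arthritis. Naive libraries had 0, 0, 4.99 and 0 normalized reads, and untreated arthritic libraries had 311, 61.6, 227 and 2.88. The mean was 150.7 ± 143 (SD, n = 4) in untreated arthritis, so the fourth library, with 2.88, lies among the naive values and lowers the log2 mean against which day 5 is set. After 1 day the libraries had 137, 124, 226 and 116 with saline and 54.6, 236, 253 and 131 with RTD-1. Day 3 ran from 124 to 575 (median 368) with saline and from 60.3 to 399 (median 189) with RTD-1. Day 5 ran from 103 to 391 (median 241) with saline and from 125 to 647 (median 274) with RTD-1, and healthy RTD-1 libraries ranged from 0 to 5.21. Every treated arthritic library was above every naive and every healthy one, while the treated arthritic groups overlapped one another.

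The second, ENSRNOG00000028992 (next in D), was less even. Naive libraries had 18.7, 7.68, 4.99 and 253 normalized reads, and untreated arthritic libraries had 851, 112, 402 and 108. The naive library with 253 exceeds 2 of the 4 untreated arthritic libraries, so these groups overlap. After 1 day the libraries had 216, 408, 419 and 271 with saline and 455, 289, 778 and 221 with RTD-1. At day 3 the medians were 518 with saline (221 to 983) and 522 with RTD-1 (234 to 896). At day 5 the medians were 655 with saline (357 to 955) and 824 with RTD-1 (249 to 1564). Healthy libraries had 20.9, 3.10, 3.02, 146 and 91.3 at day 3 and 45.4, 9.25, 89.1, 36.5 and 12.2 at day 5, all below every treated arthritic library.

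**Figure D2:**
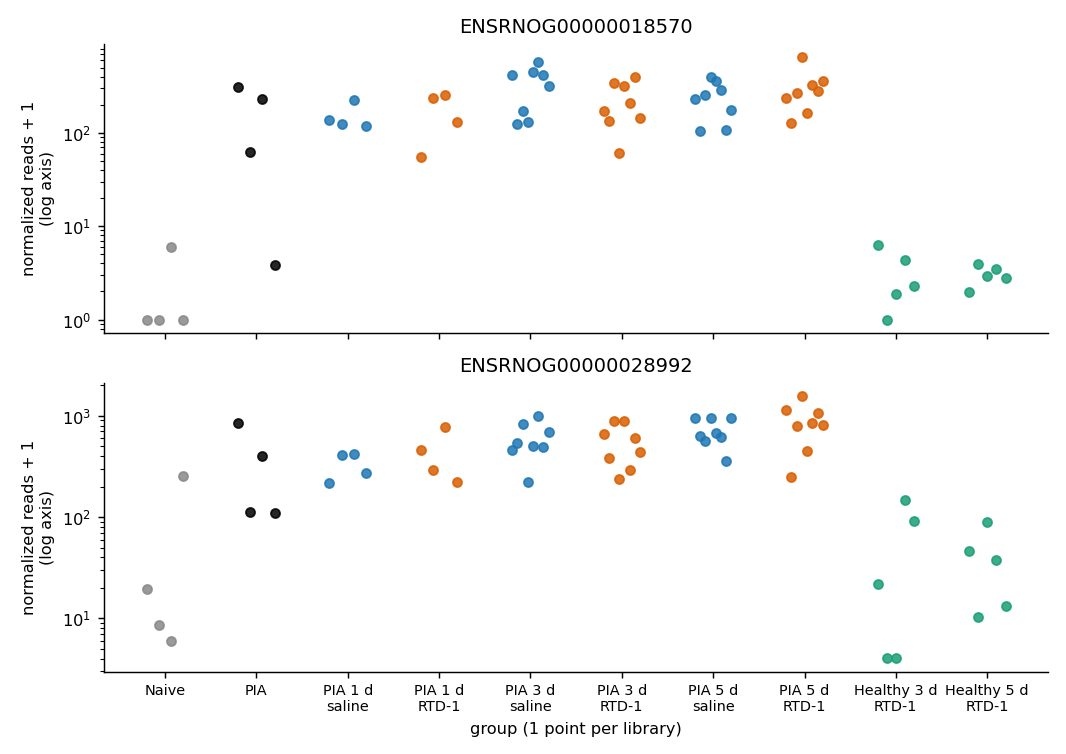
Normalized reads + 1 (log axis) in each library of the 10 groups for the genes with the highest D, ENSRNOG00000018570 above and ENSRNOG00000028992 below, with 1 point per library. For the first gene the fourth untreated arthritic library (2.88 normalized reads) lies with the naive and healthy libraries, apart from all other arthritic ones.

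The level of untreated arthritis against which the genes were ranked rested in part on 1 library. Replicate 4 was the lowest of the 4 untreated arthritic libraries for 34 of the 38 genes with D above 0, for 59 of the other 112, and for 59 of the 323 induced genes not taken, of which 223 had replicate 3 lowest. The median level of the 38 genes on the log2 scale was 8.84, 8.12 and 8.55 in replicates 1 to 3 and 7.04 in replicate 4. That of the 112 was 7.88, 7.59, 7.51 and 7.22. Naive replicate 4 also stood apart for the 38 genes, at 5.90 against 4.81, 4.99 and 5.06, and was the highest naive library for 18 of them. When the rule was applied without untreated arthritic replicate 4, 119 of the 150 genes were taken again. Of the 150, 23 then had a day 5 mean above untreated arthritis, 22 of them among the 38.

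**Figure D3:**
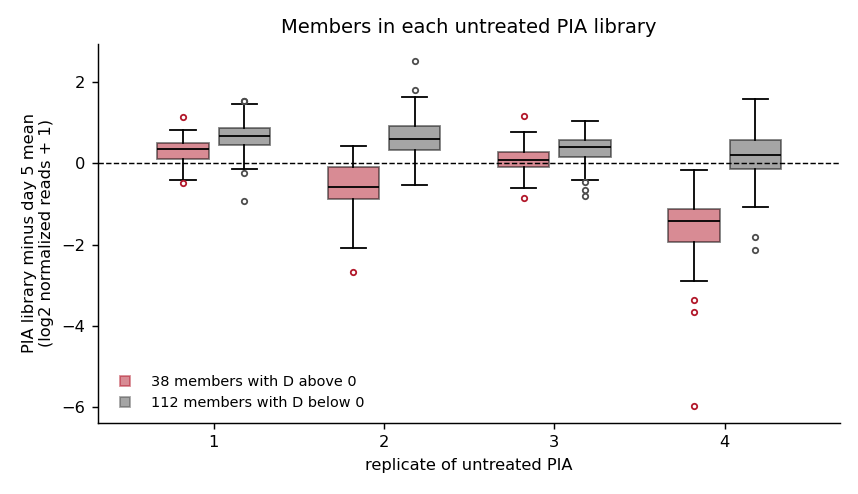
Level in each of the 4 untreated PIA libraries minus the day 5 mean (y axis, log2 of normalized reads + 1), as boxes over the 38 genes with D above 0 (red) and the 112 below 0 (grey). Boxes show the median and quartiles, and circles are genes beyond the whiskers. In replicate 4 all 38 red genes lie below the dashed line of no difference.

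Between untreated arthritis and day 5 the 150 genes kept most of the distance from naive, which at day 5 follows in part from the rule. The share kept is the distance of a group mean from naive as a percent of the distance of untreated arthritis from naive, in deposited log2 units. Its median over the genes was 103% after 1 day of saline and 106% after 1 day of RTD-1, 89.5% and 98.0% after 3 days, and 88.5% and 84.6% after 5 days. For the 38 genes with D above 0 these medians ran from 108.5% (3 days of saline) to 111% (5 days of RTD-1), whereas for the 112 they went from 102% and 105% after 1 day to 84.7% and 80.6% after 5 days. The 323 induced genes not taken kept a median of 63.2% with saline and 60.2% with RTD-1 at day 5. The ranking by D fixes the day 5 shares of all these sets in part, so they describe the choice.

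Day 1 held the highest mean for more of the 150 genes than any other time, in a description that includes the untreated arthritic and day 5 means used by the rule. Along untreated arthritis and days 1, 3 and 5 of saline, the highest group mean was at day 1 for 80 genes, in untreated arthritis for 42, at day 3 for 15 and at day 5 for 13. With RTD-1 the highest mean was at day 1 for 88 genes, in untreated arthritis for 31, at day 3 for 11 and at day 5 for 20. In 8 genes both day 5 means exceeded all 5 other arthritic means, and in 5 the means went up from day 1 to day 3 to day 5 in both arms. The 8 have D above 0 by their definition. Among the 323 induced genes not taken, the highest mean was at day 1 for 88 with saline and 195 with RTD-1, and in untreated arthritis for 235 and 128.

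**Figure D4:**
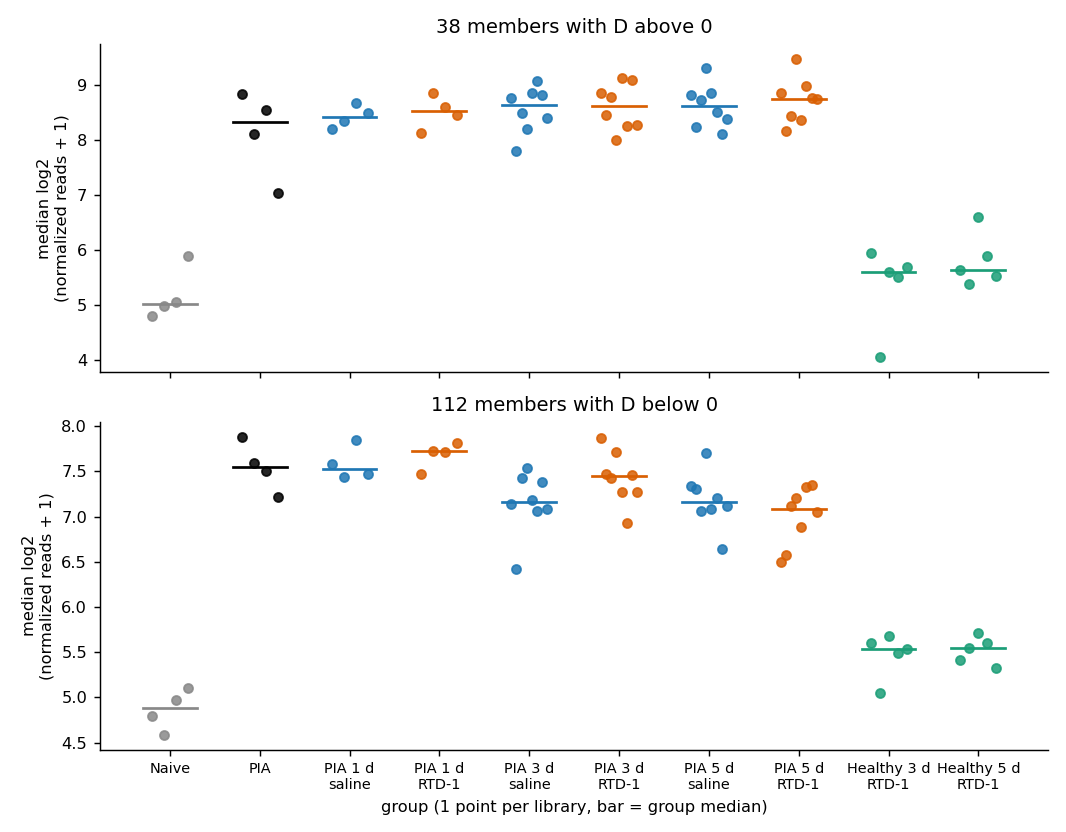
Median level per library (y axis, log2 of normalized reads + 1) of the 38 genes with D above 0 (top) and the 112 below 0 (bottom) in the 10 groups, with 1 point per library and a bar at the group median. Every arthritic library lies above every naive and healthy library in both panels.

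Days 1 and 3 did not enter the choice, and there the course of the genes could be tested. From day 1 to day 3 with saline the median difference over the 150 was -0.37, against 0.00 over all genes, and 122 of 150 were negative. Over the 323 induced genes not taken it was lower, at -0.59, with 21 positive. None of the 150 was called (limma, smallest adjusted p 0.0659), where 0.176% of all genes were, and 26 had an unadjusted p under 0.05 (17.3%, against 14.4% of all genes), of which 1 was higher. The gene with that smallest adjusted p, ENSRNOG00000006946, was picked after its values were seen. It had 128, 131, 128 and 113 normalized reads on day 1 and ran from 27.1 to 101 on day 3 (median 69.1), with no overlap, a difference of -0.90 (SE 0.237). Without replicate 3 of the day 3 saline group 2 of the 150 were called, and without replicate 4 of that group 1 was, all lower. With TMM factors 2 were called and with quantile normalization 3, also all lower, where 3.28% and 2.63% of all genes were called. The share of all genes called with a library left out is not given here.

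With RTD-1 the median difference from day 1 to day 3 was -0.19 over the 150 and -0.20 over all genes, and -0.01 and -0.02 with TMM factors. Over the 323 induced genes not taken it was -0.59, and -0.40 with TMM factors. None of the 150 was called (limma, smallest adjusted p 0.279), where 0% of all genes were, and 8 had an unadjusted p under 0.05 (5.33%, against 12.1% of all genes), all lower. The 38 genes with D above 0 had medians of -0.05 with saline (16 of 38 positive) and 0.03 with RTD-1 (21 of 38 positive). The 112 others had medians of -0.41 and -0.27. With TMM factors the medians were -0.04 with saline and 0.22 with RTD-1 for the 38, and -0.40 and -0.09 for the 112. Levels against 0 in the RTD-1 arm therefore depended on the scaling, and no single gene passed the test there under either.

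RTD-1 against saline at the same day asks whether the treatment moved these genes. At day 1 the median difference over the 150 was 0.07, with 0.26 over the 323 induced genes not taken and 0.16 over all genes. With TMM factors it was -0.09 over the 150 and -0.00 over all genes. None of the 150 was called by limma (smallest adjusted p 0.912), where 0% of all genes were, and 0 had an unadjusted p under 0.05, against 4.69% of all genes. At day 3 the median was 0.18 over the 150, with 110 of 150 positive. It was 0.29 over the 323 induced genes not taken and -0.03 over all genes. None was called (limma, smallest adjusted p 0.436), where 0.00766% of all genes were, and 14 had an unadjusted p under 0.05 (9.33%, against 7.73% of all genes), of which 13 were higher with RTD-1. Within replicates 1 to 4 the day 3 median was 0.43 (all genes 0.16), and within replicates 5 to 8 it was -0.06 (all genes -0.21). Replicates 5 to 8 against 1 to 4, over both arms at day 3, called 0 of the 150 (limma, smallest adjusted p 0.109), where 0.138% of all genes were called, and 9 had an unadjusted p under 0.05 (6% of the 150, against 11.9% of all genes).

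ENSRNOG00000057092, picked after its values were seen, was among the genes with the smallest adjusted p at day 3. It ran from 90.5 to 1124 normalized reads (median 498) with saline and from 299 to 2879 (median 932) with RTD-1. The groups overlapped, and the difference was 1.15 (SE 0.413, limma adjusted p 0.436). The median difference at day 3 was -0.00 over the 38 genes with D above 0 and 0.24 over the 112 others.

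At day 5 the ranking used the mean of both arms and not their difference. The median difference between RTD-1 and saline was -0.05 over the 150, -0.08 over the 323 induced genes not taken and -0.04 over all genes. None was called (limma, smallest adjusted p 0.998), where 0% of all genes were, and 6 had an unadjusted p under 0.05 (4% of the 150, against 3.60% of all genes), of which 3 were higher. The medians were -0.37 within replicates 1 to 4 (all genes -0.24) and 0.31 within replicates 5 to 8 (all genes 0.17), so the direction turned between these sets of libraries. The change in the RTD-1 effect was tested for each pair of days, added after the data were seen. From day 3 to day 5 it called 0 of the 150 (limma, smallest adjusted p 0.471) and 0% of all genes. There, 20 of the 150 had an unadjusted p under 0.05 (13.3%, against 7.02% of all genes). From day 1 to day 3 it called 0 of the 150 and 0.00766% of all genes, with 0.667% against 5.32% at that unadjusted p. From day 1 to day 5 it called 0 of the 150 and 0% of all genes, with 1.33% against 4.8%. A change that misses the threshold in these groups is not shown to be absent.

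Arthritic against healthy synovium after 3 days of RTD-1 uses only libraries outside the rule. Of the 150 genes, 145 were higher in the arthritic libraries and 0 lower (limma, adjusted p under 0.05), where 16.8% of all genes were called higher and 30.6% lower. All 150 differences were positive, from 0.35 to 9.84, with a median of 2.18 against -0.20 over all genes. All 38 genes with D above 0 were called, with a median of 3.13, and so were 107 of the 112 others, with a median of 1.96. Of the 323 induced genes not taken, 311 were called higher, with a median of 1.90. In 129 of the 150 the lowest arthritic library was above the highest healthy one, as for 8.5% of all genes. The same held against healthy day 3 libraries for 142 genes after 1 day of saline (15.3% of all genes), 144 after 1 day of RTD-1 (22% of all genes), and 113 at day 3 of saline (6.94%). Day 5 libraries, which entered the rule, lay wholly above healthy day 5 libraries for 107 genes with saline (4.32% of all genes) and 96 with RTD-1 (5.26%). Reads in genes were 4437281 to 6183258 in the healthy day 3 libraries and 464693 to 3753844 in the arthritic day 3 RTD-1 ones. Healthy day 5 libraries held 5783727 to 7716834. The other treated arthritic libraries held 1017275 to 6415288, both limits from day 5 saline. The part of depth in the differences was not tested.

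**Figure D5:**
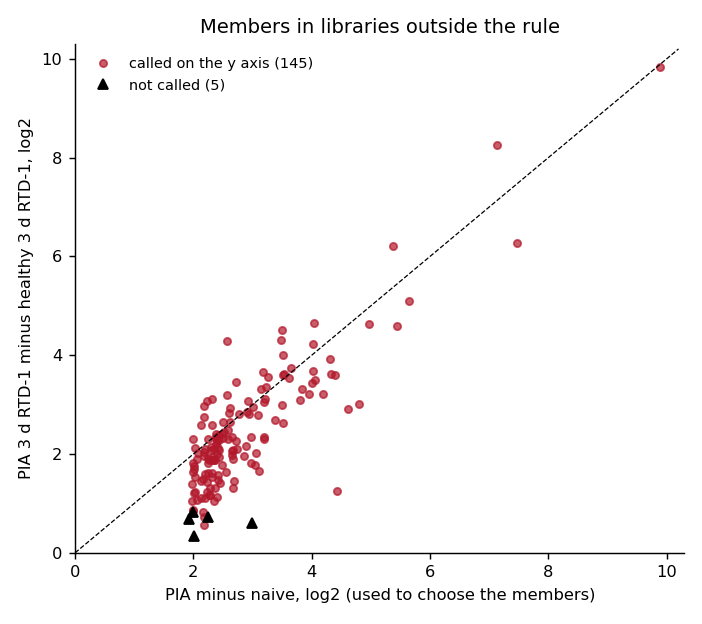
Difference between arthritic and healthy libraries after 3 days of RTD-1 (y axis) against the difference between untreated PIA and naive that chose the genes (x axis), both in log2 of normalized reads + 1, with 1 point per gene. The 145 called genes are circles and the 5 others are triangles, and the dashed line marks equal differences.

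The biggest difference in that comparison was in ENSRNOG00000002548. It ranged from 9958 to 18431 normalized reads (median 11022) in the arthritic day 3 RTD-1 libraries and was 6.82, 5.17, 13.4, 21.0 and 26.97 in the healthy ones. The difference was 9.84 (SE 0.513, limma adjusted p 1.94e-20). Its untreated arthritic libraries had 22313, 10460, 17193 and 4195, and its naive libraries 8.89, 6.72, 7.98 and 30.2. At day 5 it was still at 5738 to 14328 (median 7581) with saline and 1941 to 18754 (median 9970) with RTD-1, far above every library without arthritis. ENSRNOG00000002843 came next. It ranged from 182 to 846 (median 293) in the arthritic libraries, with 2486 reads in all, and had 1 read in the 5 healthy libraries together. The ratio of reads per unit of depth was 4593, with an exact 95% interval from 824 to 181500 that covers counting error only.

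The 5 genes not called, named after their values were seen, had overlapping arthritic and healthy levels. ENSRNOG00000002657 ran from 20.2 to 84.3 normalized reads (median 56.0) in the arthritic libraries and had 37.7, 25.3, 46.6, 41.1 and 39.1 in the healthy ones (difference 0.35, limma adjusted p 0.339). ENSRNOG00000000451 ran from 82.2 to 147 (median 113) against 57.3, 81.2, 66.1, 82.6 and 86.6 (difference 0.59, limma adjusted p 0.258). Their highest naive values were 21.9 and 31.2, below every healthy value of the same gene.

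Of the other uncalled genes, ENSRNOG00000020193 ran from 40.0 to 161 (median 52.4) against 30.9, 14.0, 24.6, 67.5 and 104 normalized reads (difference 0.69, limma adjusted p 0.146). ENSRNOG00000019050 ran from 84.6 to 309 (median 102) against 77.8, 72.4, 90.7, 63.3 and 62.6 (difference 0.73, limma adjusted p 0.107). In both, at least 1 healthy library exceeded the lowest arthritic one.

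The last, ENSRNOG00000001959, ran from 12.3 to 137 (median 39.6) against 28.9, 10.9, 28.1, 34.8 and 18.3 normalized reads (difference 0.83, limma adjusted p 0.284). Among the untreated arthritic libraries it had 27.1, 302, 40.1 and 24.9, so its mean there rested on the second library, and the others were near its healthy levels.

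Without arthritis the median level of the 150 genes stayed low. On the log2 scale it was 5.00 to 5.84 in healthy RTD-1 libraries and at least 6.68 in arthritic ones. Not every gene stayed low. ENSRNOG00000020193, picked after its values were seen, had a mean of 68.2 normalized reads in healthy day 5 libraries and 68.2 in untreated arthritis. Between days 3 and 5 of RTD-1 in healthy rats the median difference was 0.12 over the 150 and 0.04 over all genes. None was called (limma, smallest adjusted p 1), where 0% of all genes were, and 7 had an unadjusted p under 0.05 (4.67%, against 0.475% of all genes). Healthy RTD-1 levels at day 3 exceeded naive by a median of 0.45 deposited log2 units (122 of 150 genes higher, all genes 0.30). At day 5 the median was 0.59 on the same scale (128 of 150, all genes 0.35). With TMM factors, on log2(normalized reads + 1), the medians over the 150 were 0.16 and 0.28, against 0.03 and 0.04 over all genes. Naive libraries entered the rule and were chosen to be low, so these values carry no test.

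The 150 genes varied together only in part between libraries of a group. The median pairwise correlation of deviations from the group mean over the 58 libraries was 0.266 over the 150 genes, 0.402 over the 38 with D above 0 and 0.295 over the 112 others. With TMM factors these were 0.191, 0.356 and 0.221. It was 0.350 over the 323 induced genes not taken and 0.312 over the 7398 genes at or above the level of the lowest of the 150, and with TMM factors 0.269 and 0.00524. Positive pairs made up 87.65% over the 150, 96.63% over the 323 and 92% over the 7398. With TMM factors they made up 76.55%, 90.76% and 50.95%. The values share libraries and depth, and the 38 were selected partly through the same libraries, so they are descriptions.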

How the data were processed

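The deposited table holds log2 values, per the file itself: taken back from log2 they are whole reads divided by a factor of each library, and 0 reads is stored as 0.9 of a read. The submitters' processing notes name HISAT and DESeq. The genome build is not given in the sources used here, nor are versions and annotation. Per the labels' protocols, libraries were made with a stranded total RNA kit and read as single reads of 75 nt. Whole reads came back for 100% of values above 0 (relative tolerance 0.001). The 1 row with no identifier (at most 0.0137% of reads) was left out. Reads in genes were 24.5% to 49.9% of the factor.

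Reads were scaled to the median factor (5.75 megareads). On log2(normalized reads + 1), limma 3.58.1 (R 4.3.3) was fitted with trend and robust settings, 1 fit of 10 group means and Benjamini-Hochberg adjustment over 13062 genes, two-sided. The fit was also run on simulated reads that gave all genes the same spread setting, so that run does not measure its errors in these data. The genes and lists were chosen with earlier results of these data known. Symbol lists and cell type markers could not be matched and were not analysed here. Named genes were to be the highest in D, those at the rank limit and the called genes with the largest differences, at most 2 a paragraph by identifier. Any other gene was named after its values were seen. Alternatives were pseudocounts of 0.5 and 8, no filter or one of 50, TMM, quantile normalization and voom. Others were only the compared groups, a replicate block, replicates 1 to 4 or 5 to 8, and libraries left out.

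Replicate numbers in the titles did not pair libraries: over 38 same-number pairs the correlation of deviations ran from -0.37 to 0.28.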

Additional observations from a re-analysis of the deposited data

Results flagged for a closer look

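In 150 sets of 4 to 8 libraries, 27 had a highest or lowest library set apart from the others by Dixon's 95% limit. Chance gives about 1 in 20 for independent, normally distributed values. Most sets here were normalized reads not on a log scale, and the sets shared libraries. That rate need not hold here, and an excess over chance was not tested. Values below are normalized reads unless stated. The median log2 level of the 150 genes was set apart in replicate 3 of 1 day saline (8.00, high), replicate 2 of 3 day saline (6.68, low) and replicate 2 of healthy 3 day RTD-1 (5.00, low).

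Naive libraries were set apart for ENSRNOG00000018570 (4.99 in replicate 3) and ENSRNOG00000028992 (253 in replicate 4). The first also had 647 in replicate 4 of 5 day RTD-1.

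Naive replicate 4 was also high for ENSRNOG00000058470 (467) and ENSRNOG00000002548 (30.2). ENSRNOG00000058470 further had 25520 in replicate 3 of 3 day RTD-1.

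ENSRNOG00000002843 had 4.80 in naive replicate 2, 846 in replicate 4 of 3 day RTD-1, 0.401 in replicate 1 of healthy 3 day RTD-1 and 0.330 in replicate 2 of healthy 5 day RTD-1. Each of these healthy groups held 1 read of this gene in all. ENSRNOG00000057092 had 2879 in replicate 4 of 3 day RTD-1 and 315 in replicate 2 of healthy 5 day RTD-1.

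ENSRNOG00000019050 and ENSRNOG00000001959 were set apart in the same 3 libraries. These were untreated PIA replicate 2 (306 and 302), replicate 6 of 3 day saline (275 and 242) and replicate 2 of healthy 5 day RTD-1 (204 and 171). The first also had 309 in replicate 4 of 3 day RTD-1, and the second 297 in replicate 1 of 5 day RTD-1.

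ENSRNOG00000000451 was high in 1 library of each saline group, with 676 at day 1 (replicate 2), 735 at day 3 (replicate 4) and 886 at day 5 (replicate 1), and had 84.2 in replicate 2 of healthy 5 day RTD-1. These 3 saline libraries were the deepest of their groups.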

How the results depend on the processing

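With an untreated arthritic mean of at least 5 in place of 3, 77 of the 150 genes were kept, and with TMM factors 104. Over 24 single libraries left out, 119 to 148 were kept, and 23 (without untreated arthritic replicate 4) to 50 of the 150 had D above 0. The day 1 median of RTD-1 minus saline was -0.095 with TMM factors and -0.086 with quantile normalization. The day 5 median was -0.37 in replicates 1 to 4 and 0.31 in replicates 5 to 8. From day 1 to day 3 of saline, 2 genes were called with TMM factors, 3 with quantile normalization and 0 to 2 with 1 library left out. The cause was not tested. With TMM factors and quantile normalization the share of all genes called was also above that of the main fit, as given above. No called result changed direction. Of arthritic against healthy, 141 to 146 genes were called over 10 settings and 141 to 145 over 13 libraries left out. The main fit called 16.8% of all genes higher there and 30.6% lower, and shares under the other settings are not given here. With the replicate block, 144 were called there and 0 of the 150 in each other tested comparison. Reads per library limit what low genes can show.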
